A study of Mus musculus with 14 samples.

Results

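Polycomb group genes encode the subunits of complexes that mark histones on silenced genes, and 34 of them were followed in single haematopoietic stem cells (HSCs) of the mouse. The members were 13 genes of Polycomb repressive complex 2 (PRC2) and 21 genes of Polycomb repressive complex 1 (PRC1). They were chosen by name and matched by gene ID, and are 34 of the 25832 gene IDs in the count tables. The study examined Phf19, the gene of a PRC2 accessory subunit, by comparing Phf19 KO with floxed control HSCs. Besides H3K27me3 ChIP-seq, bulk RNA-seq and ATAC-seq, it holds 4 plates of MARS-Seq, in which single cells are sorted into wells and transcripts are counted by molecular barcodes (unique molecular identifiers, UMIs). Those plates, named 350W, 351W, 352W and 353W, are described here. Each holds 96 wells whose cell names begin with WT and 96 whose names begin with KO. Their labels name bone marrow, depletion of lineage-positive cells and a CD150+CD48- HSC phenotype, without a genotype, strain, age or animal. Whether the WT cells were the floxed controls, how the gene was deleted and whether plates came from separate animals is not stated in the labels, so the spread between plates may be technical. WT cells filled wells 1 to 96 and KO cells wells 97 to 192 in every plate, so prefix and well position cannot be told apart.

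PRC2 trimethylates lysine 27 of histone H3 through the alternative catalytic subunits Ezh1 and Ezh2, held together by Eed and Suz12. Accessory subunits define PRC2.1 (the Polycomb-like proteins Mtf2, Phf1 and Phf19, with Epop or Lcor products) and PRC2.2 (Jarid2 and Aebp2). PRC1 ubiquitinates histone H2A through Rnf2 or Ring1, each paired with a Pcgf protein. Canonical PRC1 adds a Cbx protein, which reads H3K27me3, and a Phc protein, while variant PRC1 carries Rybp or Yaf2. In blood, Ezh2 is known to be abundant in dividing progenitors and Ezh1 in resting stem cells, and Bmi1 is known for its part in stem cell self-renewal.

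The promoter windows of Ezh1 and Ezh2 are shown because the balance of these alternative enzymes is a main readout below. They are RefSeq sequences of build GRCm38.p6, 5′ to 3′ along each gene, from 250 bases before to 50 bases after the start. Ezh1 lies on the minus strand at chr11:101226414-101226713 and Ezh2 on the minus strand at chr6:47594981-47595280. Capitals mark the word TTTGGCGC, a match to an E2F-type site.
Ezh1: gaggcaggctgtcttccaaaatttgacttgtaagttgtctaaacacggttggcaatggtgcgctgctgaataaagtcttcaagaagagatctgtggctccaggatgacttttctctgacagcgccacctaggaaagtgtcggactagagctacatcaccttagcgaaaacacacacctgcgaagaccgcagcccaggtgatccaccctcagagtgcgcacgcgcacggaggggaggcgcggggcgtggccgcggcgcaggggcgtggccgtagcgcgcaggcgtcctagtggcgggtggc
Ezh2: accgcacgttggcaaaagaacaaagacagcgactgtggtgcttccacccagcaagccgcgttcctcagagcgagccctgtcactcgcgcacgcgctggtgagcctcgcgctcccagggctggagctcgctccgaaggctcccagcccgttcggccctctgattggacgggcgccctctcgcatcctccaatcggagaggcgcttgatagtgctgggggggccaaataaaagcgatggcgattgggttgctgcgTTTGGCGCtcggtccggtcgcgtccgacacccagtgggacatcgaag
The words TTTCCCGC, TTTGGCGC, TTTCGCGC and TTTGCCGC were searched on both strands. The Ezh2 window held TTTGGCGC from base 254 of the window on the gene strand, and the Ezh1 window held none of the 4 words. The Suz12 window held TTTCCCGC from base 32, and the Phf19 window held TTTCCCGC on the other strand, from base 43. In all, 3 of 42 windows of members (7.14%) held a word, against 744 of 32851 windows of all genes (2.26%), and 29 of the 34 members had a window. The members' windows had a median of 23.5 CpG against 7 over all windows, and all 4 words hold CG. A match describes letters and is not a binding site.

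Of 768 wells, 716 held 500 or more UMIs and were kept. Of the 52 wells left out, 49 were KO and 3 WT. Kept cells were summed by plate and prefix, giving 4 WT and 4 KO sums of 74 to 96 cells and 220821 to 510791 UMIs, and levels are given as CPM, the UMIs of a gene scaled to the total of its sum. The KO sum held fewer UMIs than the WT sum in every plate, and 3 UMIs, the level below which a gene may go unseen, were worth 5.87 to 13.6 CPM. The stem cell markers Hlf (188 to 386 CPM by plate) and Mecom (96.6 to 202 CPM) had UMIs in all plates, with the least of both in 352W. A list of 15 HSC markers summed to 1522 to 2065 CPM over the 8 sums, but single markers differed by plate. In 350W, 351W, 352W and 353W, Procr stood at 63.7, 156, 18.6 and 31.4 CPM and Gata2 at 257, 105, 27.9 and 70.5 CPM. Cd34 instead stood at 26.2, 35.4, 284 and 353 CPM and Meis1 at 133, 133, 347 and 94.1 CPM. Kit varied little (215 to 241 CPM). Slamf1, which encodes CD150, had 27 UMIs in all and none in 353W. Cd48 ran against the label in 352W (206 CPM) and 353W (39.2 CPM) and was at 1.87 and 0 CPM in 350W and 351W. Plates 352W and 353W also held the progenitor gene Flt3 (368 and 163 CPM, against 7.5 and 19.8 CPM) and the myeloid gene Mpo (186 and 194 CPM, against 0 in both others). Ctsg followed Mpo (53.9 and 56.0 CPM, against 0), but not all myeloid genes did. In 350W, 351W, 352W and 353W, Prtn3 stood at 217, 188, 258 and 272 CPM and Lyz2 at 78.7, 79.2, 50.1 and 91.8 CPM. A myeloid list (8 of 9 genes in the tables) summed to 275 to 343 CPM in the sums of 350W and 351W. In those of 352W and 353W it summed to 548 to 708 CPM. The 3 multipotent progenitor markers summed to 3.21 to 30.4 CPM in the sums of 350W and 351W and to 272 to 652 CPM in those of 352W and 353W. A B and T cell list (8 of 10 genes in the tables) ran from 31.6 to 11700 CPM, nearly all Ighm and Igkc in 352W and 353W, while by plate Cd79b stood at 16.9 to 73.6 CPM (94 UMIs), Ms4a1 at 3.71 to 16.8 CPM (33 UMIs), Cd79a had 5 UMIs and Cd3e 1. Values by plate are therefore given for the members described in detail.

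All 34 members were detected, 26 of them in each of the 8 sums, and together they made up 1291 to 2005 CPM. Their summed level was 1559 ± 303 CPM in WT and 1584 ± 231 CPM in KO (SD, n = 4 plates), a difference smaller than the spread. PRC2 genes summed to 714 ± 83.2 CPM in WT and 675 ± 132 CPM in KO (SD, n = 4), and PRC1 genes to 845 ± 337 and 908 ± 284 CPM (SD, n = 4). By mean level 4 members exceeded 100 CPM, 18 lay between 30 and 100 CPM, 6 between 10 and 30 CPM and 6 below 10 CPM. The highest were Rbbp7 (209.9 CPM), Yaf2 (141.6 CPM), Phc1 (110.9 CPM) and Phc2 (109.96 CPM), the last by plate 351W alone, since its median over the 8 sums was 32.2 CPM. The lowest were Cbx8, Phf19, Cbx2, Phf1, Pcgf1 and Pcgf2. MARS-Seq tags the 3′ end of a molecule once, so these levels do not scale with transcript length, though genes can still differ in how well their ends are captured. Of the 34 members, 15 overlap another RefSeq gene, among them Ezh2, Rbbp7, Cbx6, Cbx7 and Phc2, and strand use in the counting is not stated, so reads of such pairs cannot be told apart.

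**Figure D1:**
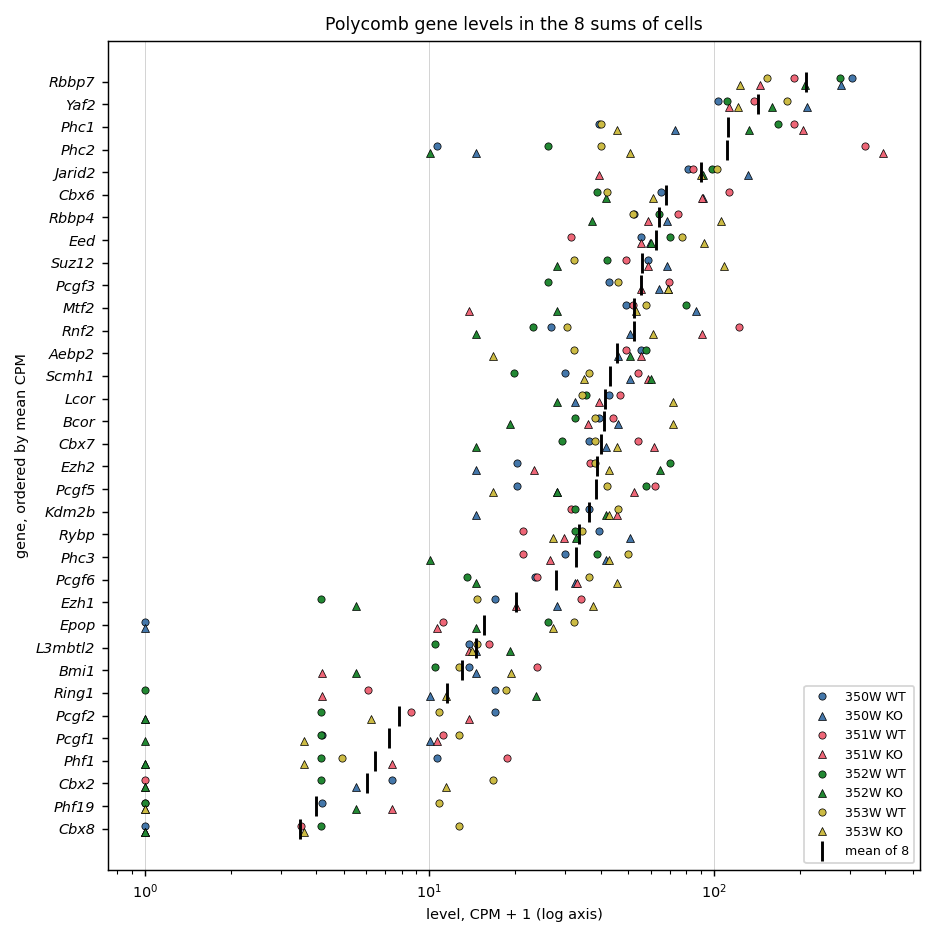
Level of each of the 34 Polycomb genes (CPM + 1, log axis) in the 4 WT sums (circles) and 4 KO sums (triangles), coloured by plate, with the mean of all 8 as a bar. Rbbp7 and Yaf2 stand highest, Phc2 lies far to the right in plate 351W only, and the circles and triangles of each gene overlap.

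Single cells showed members sparsely. No member exceeded 10 UMIs in a well. A UMI of Rbbp7 was found in 43.7% of the 716 cells, of Yaf2 in 34.5%, of Phc1 in 28.6%, of Jarid2 in 24.9%, of Phc2 in 22.9%, of Ezh2 in 8.94%, of Ezh1 in 5.17% and of Phf19 in 1.26%. With every cell thinned to 500 UMIs these shares were 8.94% for Rbbp7, 6.28% for Yaf2, 4.89% for Phc1, 3.21% for Jarid2, 6.42% for Phc2, 1.96% for Ezh2, 0.978% for Ezh1 and 0.140% for Phf19. The shares fell with depth, and a cell without a UMI was not shown to lack the transcript. No cell type that lacks these genes was among the cells, so no background share could be set beside them. The share for Rbbp7 was 48.0% in WT and 38.8% in KO cells before thinning and 9.45% and 8.36% after it.

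Phf19 (ENSMUSG00000026873), the gene the study deletes, had 9 UMIs in all. WT sums held 1, 0, 0 and 5 UMIs in plates 350W, 351W, 352W and 353W, and KO sums held 0, 2, 1 and 0. The counts are at or below 3 UMIs in 7 of 8 sums, too few to check the prefixes. Moreover, a 3′ tag can lie outside a deleted exon, and the position of the deletion is not given in the labels.

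Ezh2 transcripts outnumbered those of Ezh1 over all cells, and the balance differed more between plates than between prefixes. Ezh1 (ENSMUSG00000006920) stood at 16.0, 33.0, 3.15 and 13.7 CPM in the WT sums of 350W, 351W, 352W and 353W, and at 27.1, 19.2, 4.53 and 36.6 CPM in the KO sums. Ezh2 (ENSMUSG00000029687) stood at 19.2, 35.5, 69.2 and 37.2 CPM in WT and at 13.5, 22.4, 63.4 and 41.9 CPM in KO. For both genes WT and KO overlapped, and 352W had the least Ezh1 and the most Ezh2 in either prefix. Ezh1 made up 53 of the 154 UMIs of both genes (34.4%, exact 95% interval 26.96% to 42.5%). By plate its share was 55.0% (31.5% to 76.9%) in 350W, 47.5% (31.5% to 63.9%) in 351W, 5.26% (0.644% to 17.7%) in 352W and 37.5% (24.9% to 51.5%) in 353W. The interval of 352W does not meet those of the other plates, and intervals here cover counting error only.

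352W is also the plate with the most Cd48 and Flt3 given above. Its share of cells with 2 or more UMIs of 20 G2/M genes, 33.7%, was below the 87.4% of 353W. That share is not scaled for depth, and median UMIs per cell were 5006 (WT) and 4483.5 (KO) in 353W against 2920 and 2552.5 in 352W. As a level, the 20 genes summed to 202 and 311 CPM in 350W and 388 and 457 CPM in 351W (WT and KO). They summed to 944 and 1078 CPM in 352W and 1502 and 1483 CPM in 353W. The part of these differences in the Ezh1 share was not tested. The Ezh1 share was 45.5%, 48.1%, 4.35% and 26.9% in WT cells of the 4 plates and 66.7%, 46.2%, 6.67% and 46.7% in KO cells. These shares rest on few UMIs of both genes, 11, 27, 23 and 26 in WT and 9, 13, 15 and 30 in KO. Ezh1 itself had 1 UMI in each sum of 352W. KO exceeded WT in 3 of 4 plates, by 10.3 percentage points on average (SD 11.9, n = 4). The two-sided exact sign-flip test gave p = 0.25, a test that cannot reach 0.05 with 4 plates, and 0.75 after adjustment over 4 balances. A UMI of Ezh1 alone was seen in 34 cells, of Ezh2 alone in 61 and of both in 3, while 618 of 716 cells (86.3%) had neither, so the balance within a cell was not detectable at this depth.

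**Figure D2:**
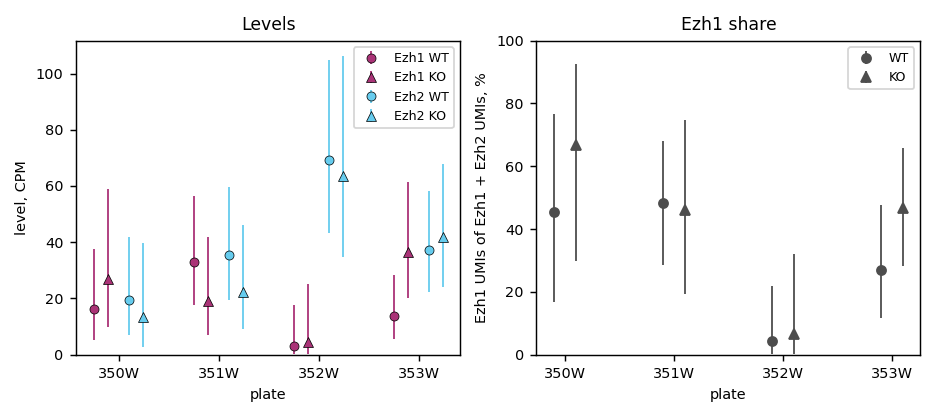
Left, Ezh1 and Ezh2 levels (CPM) by plate in WT (circles) and KO (triangles) sums, with exact 95% Poisson intervals. Right, Ezh1 share of Ezh1 + Ezh2 UMIs (%) with exact 95% binomial intervals. In plate 352W both prefixes show a low Ezh1 share, 4.35% and 6.67%, while WT and KO intervals overlap in every plate.

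The scaffold subunits of PRC2 were seen in all 8 sums. Eed, which binds the methylated histone tail, ranged from 30.4 to 91.5 CPM. Suz12, the subunit on which PRC2 assembles, stood at 57.7, 48.2, 40.9 and 31.3 CPM in WT and at 67.7, 57.6, 27.2 and 107.2 CPM in KO cells of 350W, 351W, 352W and 353W. Its highest value was thus a single KO sum, and the prefixes overlapped.

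Rbbp4 and Rbbp7 encode paralogous histone chaperones that also serve other chromatin complexes. Rbbp7 (ENSMUSG00000031353) stood at 304.6, 190.3, 277.0 and 152.7 CPM in WT and at 279.6, 143.9, 208.3 and 122.9 CPM in KO cells. It was lower in KO in 4 of 4 plates, yet the prefixes overlapped because the plates differed more. Rbbp4 ranged from 36.2 to 104.6 CPM. Rbbp7 made up 83.5%, 71.9%, 82.7% and 65.4% of their joint UMIs in the 4 plates and 75.7% over all (exact 95% interval 72.4% to 78.8%).

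The 5 PRC2.1 genes and the 2 PRC2.2 genes gave similar numbers of UMIs as groups. This share depends on which genes are listed, and amounts of the subunits themselves were not measured. PRC2.1 genes gave 318 of 668 accessory UMIs, 47.6% (exact 95% interval 43.8% to 51.5%), and 41.7%, 47.1%, 43.3% and 54.0% in plates 350W, 351W, 352W and 353W. The PRC2.1 side rested on Mtf2 (20.7% of accessory UMIs) and Lcor (16.6%), with Epop at 6.59%, Phf1 at 2.40% and Phf19 at 1.35%. Jarid2, which links PRC2 to ubiquitinated H2A, held 35.3% and Aebp2 17.1%. Lcor ranged from 27.2 to 70.6 CPM over the 8 sums and Aebp2 from 15.7 to 56.7 CPM.

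Mtf2 stood at 48.1, 50.7, 78.7 and 56.8 CPM in WT and at 85.7, 12.8, 27.2 and 52.3 CPM in KO cells, with the widest spread in KO. Jarid2 stood at 80.2, 83.7, 97.6 and 101.8 CPM in WT and at 130.8, 38.4, 90.6 and 88.9 CPM in KO cells. For both genes the KO sums of 350W were highest and those of 351W lowest, on either side of all WT sums. Epop was not seen in 350W (0 UMIs) and reached 31.3 and 26.2 CPM in WT and KO cells of 353W. Phf1 had 16 UMIs, 13 of them in WT cells, at counts of 3, 7, 1 and 2 in WT and 0, 2, 0 and 1 in KO. The PRC2.1 share was 47.5% ± 3.03 in WT and 44.4% ± 10.7 in KO (SD, n = 4). The difference of -3.13 points (SD 9.28, lower in 3 of 4 plates) gave an exact sign-flip p = 0.625 and an adjusted p of 0.75. It was 0.43 points without 352W and 20.9 points after thinning to 500 UMIs. The thinned value rests on few UMIs, since Mtf2 was then seen in 3.07% and Jarid2 in 3.21% of cells.

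In PRC1, transcripts of the ring-finger ligase Rnf2 outnumbered those of Ring1 in every plate. The KO sum of 352W was an exception, with 3 against 5 UMIs. Rnf2 stood at 25.7, 121.8, 22.0 and 29.4 CPM in WT and at 49.6, 89.6, 13.6 and 60.2 CPM in KO cells. Both sums of 351W exceeded all others. Its paralogue Ring1 ranged from 0 to 22.6 CPM with 28 UMIs in all, and Rnf2 made up 83.6% of the UMIs of the pair (exact 95% interval 77.2% to 88.8%), ranging from 66.7% in 352W to 96.2% in 351W.

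Among the 6 Pcgf genes, whose products define the PRC1 subtypes, Pcgf3 (36.4% of 393 UMIs), Pcgf5 (26.2%) and Pcgf6 (19.1%) led. Bmi1 (Pcgf4) held 8.65% (exact 95% interval 6.07% to 11.9%), Pcgf2 5.09% and Pcgf1 4.58%. The Bmi1 share was 10.3%, 7.87%, 6.67% and 9.42% by plate, and Bmi1 stood at 12.8, 22.8, 9.44 and 11.7 CPM in WT and 13.5, 3.2, 4.53 and 18.3 CPM in KO cells. Over the 8 sums Pcgf3 ranged from 25.2 to 68.5 CPM and Pcgf5 from 15.7 to 60.9 CPM. With both prefixes together the Pcgf3 share was 34.6% to 39.7% by plate, but in 352W it was 22.9% in WT (8 of 35 UMIs) and 60.0% in KO (15 of 25). The Pcgf5 share was 17.6% in 350W and 40.0% in 352W, with exact 95% intervals of 9.47% to 28.8% and 27.6% to 53.5%. In 352W it was 51.4% in WT (18 of 35) and 24.0% in KO (6 of 25). The prefix differences of the Pcgf3 and Pcgf5 shares were not tested. Pcgf6 was higher in KO in 4 of 4 plates, at 22.4, 22.8, 12.6 and 35.2 CPM in WT and 31.6, 32.0, 13.6 and 44.5 CPM in KO, although the prefixes overlapped and it was too low to be tested. The Bmi1 share differed by -2.98 points between KO and WT (SD 5.90, lower in 3 of 4 plates, exact sign-flip p = 0.375, adjusted p = 0.75).

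Of the 4 Cbx genes among the members, Cbx6 and Cbx7 made up nearly all UMIs. Cbx6 held 57.1% of 310 UMIs (exact 95% interval 51.4% to 62.7%), Cbx7 34.8% (29.5% to 40.4%), Cbx2 5.16% and Cbx8 2.90%. Cbx6 stood at 64.1, 111.6, 37.8 and 41.1 CPM in WT and at 90.2, 89.6, 40.8 and 60.2 CPM in KO cells, with 350W and 351W above 352W and 353W in both prefixes. Cbx7 ranged from 13.6 to 60.8 CPM, while its share varied little, from 31.7% to 36.4% by plate. It differed by -1.57 points between KO and WT (SD 9.69, lower in 2 of 4 plates, exact sign-flip p = 0.75, adjusted p = 0.75), and by 2.62 points without 352W. Cbx2 and Cbx8, whose products are alternative readers of H3K27me3, were seen most in 353W, where they held 12.1% and 7.07% of Cbx UMIs.

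The Phc genes, whose products polymerise PRC1, differed between plates, Phc2 by more than any other member seen in all 8 sums. Phc2 (ENSMUSG00000028796) stood at 9.62, 340.0, 25.2 and 39.2 CPM in WT and at 13.5, 393.4, 9.06 and 49.7 CPM in KO cells. Both sums of 351W lay far above every other, and WT and KO of a plate lay close together. Taking both prefixes together, 351W had 363.6 CPM, 8.33-fold the 43.7 CPM of 353W. The UMIs were spread over wells. In 351W, 131 of 185 cells had a UMI (70.8%), with at most 8 in 1 well, against 2.67%, 4.14% and 12.0% of cells in 350W, 352W and 353W.

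Phc1 was high in 2 plates, at 190.3 and 204.7 CPM in 351W and 166.8 and 131.3 CPM in 352W (WT and KO), against 38.5 to 72.2 CPM in the other 4 sums. Phc3 ranged from 9.06 to 48.9 CPM and Scmh1, whose product binds Phc proteins, from 18.9 to 58.9 CPM. The Phc2 share of Phc UMIs accordingly ran from 9.43% in 352W to 62.4% in 351W. A level at least 5-fold over the next plate was found for 1 of 34 members, Phc2, which is 1 of 21 members tested (4.76%). Among all genes tested it was found for 83 of 6541 (1.27%), 30 of these in 351W. Among them were Bap1, which encodes the deubiquitinase that removes the PRC1 mark (287 CPM in 351W, 14.9 to 29.99 CPM elsewhere), and the replication gene Fen1 (a UMI in 94.6% of cells of 351W and 6.51% to 12.0% elsewhere). Both were picked after their values were seen, and any link to Phc2 was not tested.

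**Figure D3:**
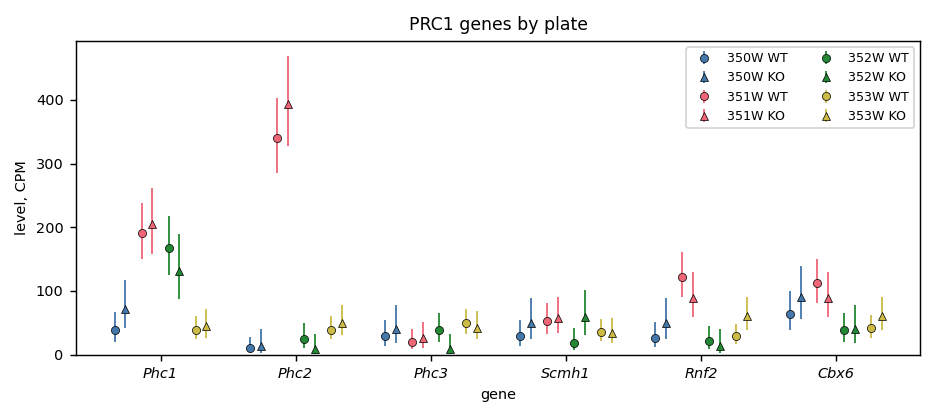
Levels (CPM) of 6 PRC1 genes in the WT (circles) and KO (triangles) sums of the 4 plates, with exact 95% Poisson intervals. Phc2 reaches 340.0 and 393.4 CPM in plate 351W and stays at or below 49.7 CPM elsewhere, and Phc1 is high in 351W and 352W.

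Among variant PRC1 genes, Yaf2 was high in every plate. Yaf2, whose product with Rybp takes the place of Cbx in variant PRC1, ranged from 102.6 to 212.0 CPM, and its plate totals differed by no more than 1.23-fold. Yaf2 made up 81.7% of the UMIs of Yaf2 and Rybp (exact 95% interval 77.9% to 85.2%), and 77.5% to 84.0% by plate. Rybp ranged from 20.3 to 49.6 CPM. Kdm2b, whose product brings PRC1.1 to CpG islands, ranged from 13.5 to 45.0 CPM. Bcor, its partner, ranged from 18.1 to 70.6 CPM and L3mbtl2 of PRC1.6 from 9.44 to 18.1 CPM.

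The comparison of KO with WT cells asked whether Phf19 loss is accompanied by changes in the other Polycomb transcripts. It was made on the 8 sums with the plate as a block, over all genes. None of the members passed: 0 of 21 tested members were called by edgeR's quasi-likelihood test at an adjusted p below 0.05, against 6 of 6541 genes (0.0917%), 2 of them higher (0.0306%) and 4 lower (0.0612%). At an unadjusted p below 0.05 there were 0 of 21 members and 398 of 6541 genes (6.08%). DESeq2 with the same block called 0 members and 1 gene, and without the block edgeR called 0 members and 0 genes, with 63 and 86 genes at an unadjusted p below 0.05. The 13 members too low for the test were Ezh1, Phf1, Phf19, Epop, Ring1, Pcgf1, Pcgf2, Bmi1, Pcgf6, Cbx2, Cbx8, Rybp and L3mbtl2. With no filter on low genes all 34 were tested and 0 called.

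The fitted log2 fold changes (KO over WT) of the 21 members ran from -0.59 to 0.59 with a median of 0.11, beside a median of -0.00 over all genes tested. Positive values numbered 13 and negative ones 8. At the ends stood Suz12 (log2 fold change 0.59, SE 0.342, adjusted p = 0.838 by edgeR) and Pcgf5 (-0.59, SE 0.373). Without 353W Suz12 was at 0.046. Scmh1 (0.50, SE 0.351), Pcgf3 (0.49, SE 0.312) and Mtf2 (-0.47, SE 0.382) came next, and Mtf2 ran from -0.96 without 350W to -0.16 without 351W.

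Rbbp7 had the smallest SE, 0.144, with a fitted log2 value of -0.30, lower in 4 of 4 plates (adjusted p = 0.800 by edgeR). Ezh2 was fitted at -0.19 (SE 0.347), Jarid2 at -0.13 (SE 0.259), Eed at 0.23 (SE 0.268), Cbx7 at 0.05 (SE 0.339) and Phc2 at 0.14 (SE 0.248).

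**Figure D4:**
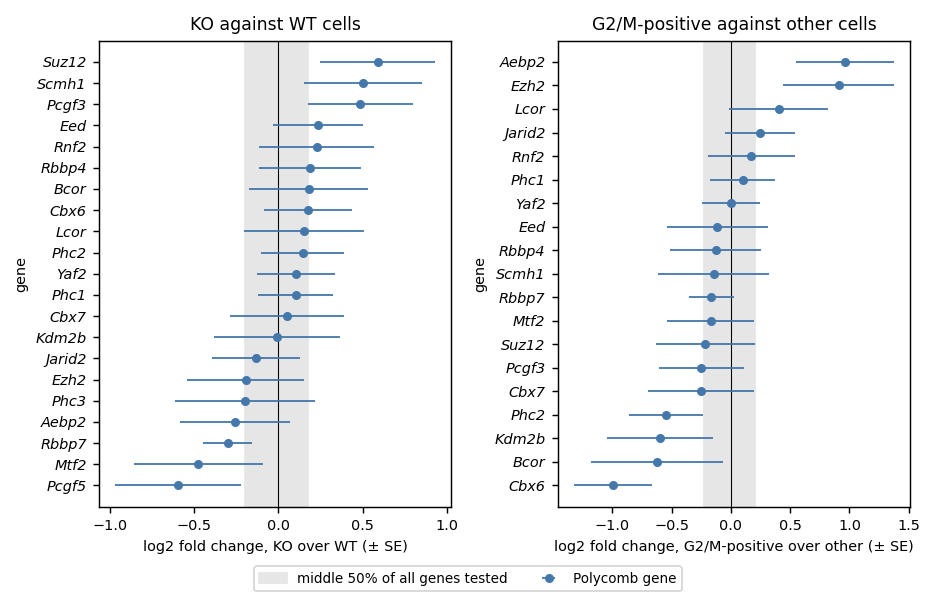
Fitted log2 fold changes with SE of the Polycomb genes tested, for KO over WT cells (left, 21 genes) and G2/M-positive over other cells (right, 19 genes), beside the middle 50% of all genes tested (grey). None passed an adjusted p of 0.05, the left panel runs from -0.59 (Pcgf5) to 0.59 (Suz12), and Aebp2 and Ezh2 lie highest in the right panel.

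Ezh2 is known to follow the cell cycle, so members were also compared between cells with 2 or more UMIs of 20 G2/M genes and all other cells of the same plate. There were 291 such G2/M-positive cells among 716, 11.2%, 32.4%, 33.7% and 87.4% of cells in plates 350W, 351W, 352W and 353W. The class is a range of a count and not a cell type: 68 cells had exactly 2 UMIs and 176 had 1. It also rested largely on few of the 20 genes in 350W and 351W. In 351W Ccnb2 (86.3 CPM), Mki67 (67.9 CPM) and Nusap1 (58.0 CPM) were highest, while Cenpf, Plk1 and Hmmr stood at 0 CPM. In 350W Nusap1 (61.8 CPM), Top2a (35.6 CPM) and Kif11 (33.7 CPM) were highest. Nusap1 varied little by plate, from 58.0 to 68.3 CPM. G2/M-positive cells were deeper, with median UMIs of 2905, 4183, 4183 and 5089 against 2644.5, 3326, 2404 and 2934. The classes were therefore also set by 1 or more G2/M UMIs after every cell was thinned to 500 UMIs, and those values stand beside the members below. None of 19 members tested was called by edgeR, against 18 of 5930 genes (0.304%), which were all higher and included genes of the list that set the classes. At an unadjusted p below 0.05 there were 2 of 19 members, Aebp2 and Cbx6, and 296 of 5930 genes (4.99%), and DESeq2 also called 0 members.

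Ezh2 stood at 27.2, 40.2, 83.4 and 42.1 CPM in G2/M-positive cells of the 4 plates and at 15.2, 23.1, 52.3 and 0 CPM in other cells. The fitted log2 value of 0.91 (SE 0.466) did not pass edgeR's test (adjusted p = 0.967), and it was 0.70 with classes from thinned cells. G2/M-positive cells stood higher in 351W and 352W. The 22 other cells of 353W held 62467 UMIs, where 3 UMIs are worth 48.0 CPM, and the value of 350W rests on 2 UMIs, where 3 are worth 40.7 CPM, so neither plate gives a direction.

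Aebp2 stood at 122.2, 62.2, 67.5 and 26.5 CPM in G2/M-positive and at 39.1, 43.8, 41.9 and 0 CPM in other cells (log2 fold change 0.96, SE 0.413, edgeR adjusted p = 0.917). It stood higher in 350W, 351W and 352W, while 353W gives no direction for the same reason as for Ezh2, and its fitted value was 0.22 with classes from thinned cells. Cbx6 stood at 40.7, 62.2, 27.8 and 45.7 CPM in G2/M-positive and at 80.4, 126.9, 48.8 and 96.1 CPM in other cells. It was lower in 4 of 4 plates, with 3 UMIs in the G2/M-positive cells of 350W, at a fitted log2 value of -0.99 (SE 0.327) and an adjusted p of 0.661 by edgeR. With classes from thinned cells the value was 0.022. When S phase genes set the classes instead, Aebp2 was fitted at -0.12 and Cbx6 at 0.33. The members' median log2 fold change was -0.14, beside -0.01 over all genes tested, and Ezh1 was too low to be tested.

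The wider pathway comprised 45 genes of the H2A deubiquitinases, H3K27 demethylases, further Polycomb partners and the opposing Trithorax (COMPASS) complexes. In KO against WT cells 25 of them were tested, with 0 called by edgeR and 1, Kmt2d, at an unadjusted p below 0.05 (log2 fold change -0.62, SE 0.294, adjusted p = 0.800). Their median log2 fold change was -0.12. Between G2/M-positive and other cells 22 were tested and 0 called, with 0 at an unadjusted p below 0.05. The highest 5 of the 45 were Auts2, a partner of variant PRC1 (456.9 CPM on average), the COMPASS subunit Dpy30 (137.8 CPM), Skp1a of PRC1.1 (123.1 CPM), Bap1 (91.2 CPM) and the casein kinase subunit Csnk2b (89.3 CPM). Auts2 thus exceeded every member in mean level, at 401 to 542 CPM by plate, and its log2 fold change was 0.05 (SE 0.104).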

How the data were processed

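The 4 MARS-Seq tables were deposited by the authors as raw UMI counts, in whole numbers, with genes in rows and cells in columns. The submitters' processing notes name GRCm38.p4 and FastQC; aligner, counter and use of strand: not given in the sources used here. Gene IDs were paired with symbols through a table (25714 of 25832), and genes absent from 1 plate's table were taken as 0 there. H3K27me3, bulk RNA-seq and ATAC-seq data were not analysed here.

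Cells with 500 or more UMIs were kept and no doublets were called. Counts were summed by plate and name prefix, giving 74 to 96 cells and 220821 to 510791 UMIs per sum, or by plate and G2/M class. Sums were tested with edgeR 4.0.16 (quasi-likelihood test, TMM, filterByExpr, plate as block) in R 4.3.3, with Benjamini-Hochberg adjustment over all genes tested and a threshold of 0.05; SE is the fold change divided by the root of F. DESeq2 1.42.0 was an alternative. Intervals are exact at 95% (Clopper-Pearson for shares, Poisson for CPM). Shares were compared between prefixes by two-sided exact sign-flip tests over 4 plates, in Python 3.11.15 with scipy 1.17.1. Other alternatives were DESeq2 size factors, other cell and gene filters, no block, thinning to 500 UMIs, other class rules and leaving out each plate.

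The plate pairs the sums because WT and KO cells of a plate share plate and table. Over the 34 members, on log2(CPM + 10), WT and KO of 1 plate correlated at r = 0.831 to 0.924 and sums of different plates at 0.617 to 0.870. The edgeR tests were run on simulated counts with 50 genes changed at each fold. For KO against WT they called 10 genes changed 1.5-fold, 31 changed 2-fold and 46 changed 4-fold. For G2/M they called 2, 16 and 42. Not all of the 50 genes changed 4-fold were called in either comparison. A member without a call may therefore still differ, also by more than 2-fold. How often a change is called at the counts of single members was not tested. All members are named in the text, with the 5 highest genes of the other pathway lists and any of them passing the threshold. Members, lists and the plate block were chosen with earlier results of these data known.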

Additional observations from a re-analysis of the deposited data

Results flagged for a closer look

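In 3 of the 34 members (8.82%) the level in 1 plate stood apart from the other 3 by Dixon's measure. All 3 were among the 21 members tested for KO against WT (14.3%), against 509 of 6541 genes tested (7.78%). Chance flags about 1 in 20 groups. Phc2 was high in 351W, at 363.6 CPM against 11.2, 18.6 and 43.7 CPM. Scmh1, which encodes a Phc partner, was high in 351W, at 55.2 CPM against 37.5, 35.3 and 34.7 CPM. That holds only with both prefixes together. Among single sums the KO sum of 352W was highest (58.9 CPM), above WT (53.3 CPM) and KO (57.6 CPM) of 351W. Aebp2 was low in 353W, at 24.6 CPM against 50.6, 50.9 and 53.9 CPM.

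Wells below 500 UMIs, used in no comparison, still held UMIs of members. There were 4 such UMIs in 351W, 15 in 352W and 6 in 353W. Over all 52 wells members made up 27 of 16463 UMIs (0.164%, exact 95% interval 0.108% to 0.239%), against 0.158% in kept cells.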

How the results depend on the processing

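No Polycomb gene was called under any alternative in which members were tested, and the lowest adjusted p of a member was 0.634 for KO against WT and 0.482 for G2/M-positive against other cells. Counts of all genes called did move. For KO against WT, 6 genes were called with the plate block and 0 with no replicate block, 1 with DESeq2, 3 with no minimum of UMIs per cell, 26 with no gene filter, 0 after thinning (1 member tested) and 2 to 12 when 1 plate was left out (12 without 352W, 2 without 353W). For G2/M, 18 became 0 with no replicate block, 11 with DESeq2, 3 in KO cells only, 28 at 3 or more G2/M UMIs, 33 with no gene filter, 4 after thinning (0 members tested) and 5 to 20 when 1 plate was left out (5 without 351W or 352W, 11 without 350W). The pairs of plates were split after seeing the data: 350W and 351W alone gave 1 gene for KO against WT, and 352W and 353W alone 11, with 0 for G2/M.

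The PRC2.1 difference between KO and WT turned positive after thinning, to 20.9 points with a share of 54.3%, on few UMIs. It ran from -7.12 to 0.43 points when 1 plate was left out (0.43 without 352W). The Cbx7 difference ran from -4.96 to 2.62 points (2.62 without 352W), the Ezh1 difference from 6.69 to 14.4 and the Bmi1 difference from -5.40 to -0.68.

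Of 21 members, 9 kept the sign of the KO over WT log2 fold change throughout: Aebp2, Cbx6, Eed, Mtf2, Pcgf3, Pcgf5, Rbbp7, Scmh1 and Suz12. In 350W and 351W alone Rbbp4 turned to -0.017, Lcor to -0.31, Rnf2 to -0.024 and Bcor to -0.047. In 352W and 353W alone Ezh2 turned to 0.034, Cbx7 to -0.12, Phc1 to -0.13, Phc2 to -0.093, Yaf2 to -0.11 and Kdm2b to 0.092. Kdm2b also turned to 0.0029 with DESeq2 size factors, 0.0032 with 1000 or more UMIs per cell, 0.040 with no minimum and 0.0090 with no replicate block. When 1 plate was left out, Bcor ran from -0.22 to 0.37, Cbx7 from -0.051 to 0.23, Jarid2 from -0.40 to 0.12, Kdm2b from -0.22 to 0.25, Lcor from -0.32 to 0.31, Phc1 from -0.011 to 0.30, Phc3 from -0.41 to 0.13, Rbbp4 from -0.23 to 0.42, Rnf2 from -0.11 to 0.34 and Yaf2 from -0.17 to 0.41. With an S phase list setting the classes, which in 351W rested largely on Fen1, Aebp2 stood at -0.12 and Cbx6 at 0.33. With classes from thinned cells, Cbx6 stood at 0.022 and Phc2 at 0.091. The cause was not tested.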
